A study of Homo sapiens with 12 samples.

Results

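The ZBTB, ZSCAN and ZKSCAN genes were followed in HK-2 cells, an immortalised line from the human renal proximal tubule, exposed to Aa, a compound given at a low dose and named in the labels only by this code. The members are all genes whose symbol is ZBTB, ZSCAN or ZKSCAN plus a number and that have a probe set annotated to them alone: 66 of 19775 genes with a probe set, measured by 152 of 54675 probe sets. They comprise 41 ZBTB, 18 ZSCAN and 7 ZKSCAN genes. Messenger RNA was measured on 12 Affymetrix arrays in 4 groups of 3: control cells at 24 h, Aa-exposed cells at 24 h, control cells at 48 h and Aa-exposed cells at 48 h. Control cells received the vehicle, and all cells grew in the same defined medium with EGF, hydrocortisone, insulin, transferrin and selenite. What Aa stands for, how much was given and in which vehicle is not given in the sources used here, and the whole study rests on 1 cell line. It asked which expression changes mark toxicity to the kidney, and the comparisons here are Aa against control at each time, with separate controls, and the change of the Aa effect from 24 h to 48 h.

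The proteins of these families bind DNA through zinc fingers of the C2H2 type and differ in the domain at the other end. ZBTB proteins carry a BTB domain, with which they pair and recruit corepressors and histone deacetylases. ZSCAN proteins carry a SCAN domain, which also forms pairs, and ZKSCAN proteins add a KRAB domain, which recruits the corepressor TRIM28 and the histone methyltransferase SETDB1. Most known members repress transcription, some activate it, and a few, such as ZBTB33 (Kaiso), ZBTB4 and ZBTB38, can bind methylated DNA.

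Values are GCRMA log2 intensities as deposited, and each gene is represented by its brightest probe set with a mean of at least 4 over the 12 arrays. This left 51 members (32 ZBTB, 13 ZSCAN and 6 ZKSCAN) among 10791 genes tested. The other 15 were below that level: ZBTB6, ZBTB7C, ZBTB8B, ZBTB12, ZBTB16, ZBTB32, ZBTB37, ZBTB42, ZBTB46, ZKSCAN7, ZSCAN1, ZSCAN4, ZSCAN10, ZSCAN20 and ZSCAN23. The nearest to the limit were ZBTB37, just outside at 3.999, and ZBTB25, just inside at 4.37. A change is the log2 value with Aa minus that of its control, given with its standard error (SE) from a limma model of all 12 arrays. Rose, fell and called are used where the p, adjusted by Benjamini-Hochberg across the tested genes, was under 0.05.

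Array medians lay between 2.93 and 3.01. The epithelial markers KRT7, KRT8, KRT18, KRT19, EPCAM and CDH1 were all measured (6 of 6), whereas 6 of 10 proximal tubule markers, among them LRP2, CUBN, AQP1 and SLC34A1, had means of only 2.09 to 3.04. The other 4, CDH6, PAX8, SLC3A1 and ABCC4, all fell with Aa at 48 h, where 20.1% of all genes tested fell. At 24 h the epithelial KRT19 (-0.71) and the fibroblast marker COL1A1 (-0.85) fell, where 12.8% of all genes did. No marker tested was called upward. No endothelial (0 of 4), leukocyte (0 of 2) or distal nephron (0 of 3) marker with a probe set reached a mean of 4, and 3 of 5 fibroblast markers (COL1A1, DCN and LUM) did. The 3′ minus 5′ signal of the control probe sets, a measure of RNA integrity, differed between Aa and control by 0.03 at 24 h and 0.12 at 48 h for actin. For GAPDH it differed by 0.02 and 0.01. The mean of 3 probe sets for 28S ribosomal RNA exceeded that of controls by 0.91 (24 h) and 0.81 (48 h) with Aa, in 3 of 3 arrays against the control of the same number. Single 28S probe sets differed by -0.01 to 1.67, and the part of ribosomal RNA in the changes below was not tested.

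More of these genes rose than fell with Aa. At 24 h, 11 of the 51 members rose (21.6%) where 10.3% of all genes tested did, and 4 fell (7.84%) where 12.8% of all genes did. At 48 h, 15 rose (29.4%, against 17.8% of all genes) and 7 fell (13.7%, against 20.1%). The median change of the members was 0.20 at 24 h and 0.18 at 48 h, beside -0.02 and -0.001 for all genes tested, and 37 members at 24 h and 33 at 48 h had a positive change. These shares describe a list and were not tested against the other genes.

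In all, 24 members were called at either time, 17 of them upward and 7 downward. None rose at one time and fell at the other by this fit, while with replicates as a block (below) ZSCAN31 did. The 9 that rose at both times were ZBTB21, ZBTB24, ZBTB38, ZBTB40, ZSCAN12, ZSCAN22, ZSCAN25, ZSCAN29 and ZSCAN32. ZBTB7A, ZBTB17, ZBTB49, ZKSCAN5, ZKSCAN8 and ZSCAN18 were called upward at 48 h alone, and ZBTB4 and ZSCAN31 at 24 h alone. ZBTB3, ZBTB25, ZSCAN16 and ZSCAN26 fell at both times, and ZBTB1, ZBTB20 and ZBTB22 were called downward at 48 h alone. A call at 1 time only does not show that the effects differed: the difference between times passed its own test in 1 member, ZSCAN31. Calls changed when single arrays were left out. Of 37 calls over both times, 18 were kept whichever of the 12 arrays was left out (6 of 15 at 24 h and 12 of 22 at 48 h).

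**Figure D1:**
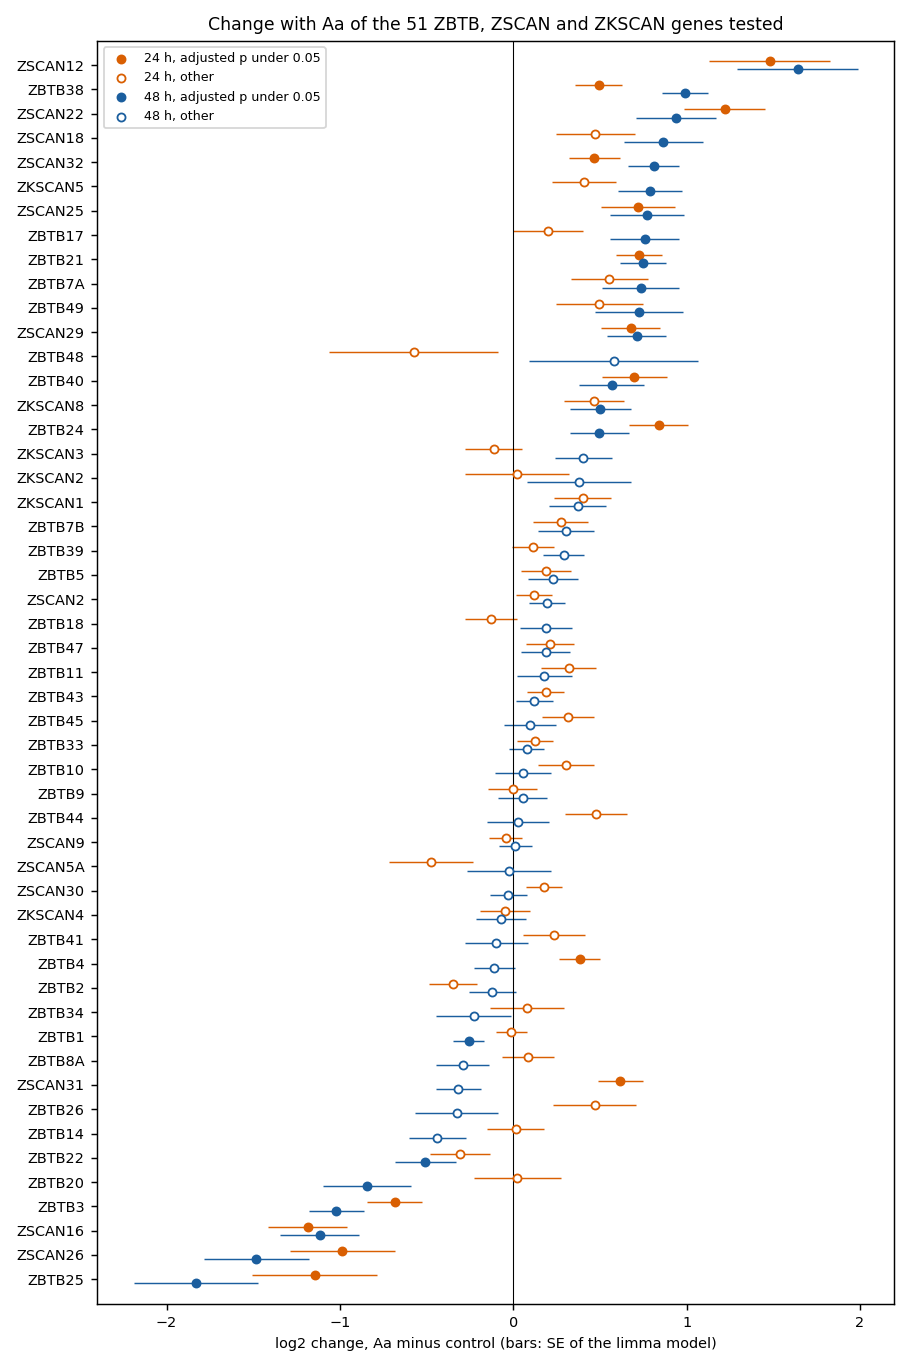
Log2 change with Aa (horizontal axis, Aa minus control) of the 51 members tested, 1 row a gene, at 24 h (orange) and 48 h (blue), with bars for the SE of the model over 3 arrays a group and filled points for an adjusted p under 0.05. ZSCAN12 at the top rose by 1.48 and 1.64, ZBTB25 at the bottom fell by 1.15 and 1.83, and most rows lie to the right of 0.

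Replicate numbers marked arrays that deviated together, and a fit with the replicate number as a block called more of the members. It counted 19 up and 5 down at 24 h, where it called 18.5% of all genes up and 22.8% down. At 48 h it counted 17 up and 10 down, beside 26.7% and 28.1% of all genes. No call was lost. The genes called at 24 h by the blocked fit alone were ZBTB7A, ZBTB26, ZBTB43, ZBTB44, ZKSCAN1, ZKSCAN5, ZKSCAN8 and ZSCAN18 upward (log2 0.19 to 0.55) and ZSCAN5A downward (-0.48). At 48 h they were ZBTB39 (0.29) and ZKSCAN1 (0.37) upward, and ZBTB8A (-0.29), ZBTB14 (-0.44) and ZSCAN31 (-0.32) downward.

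The 3 Aa arrays lay on 1 side of all 3 controls in 28 members at 24 h (54.9%), 20 above and 8 below, beside 40.5% of all genes tested. At 48 h this was so for 26 members (51%), 17 above and 9 below, beside 48.4% of all genes. At 48 h the share of members was therefore close to that of all genes.

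Promoter sequence was examined for members that moved together. RefSeq promoters of GRCh38.p14 held 57 of the 66 members, among them 15 of the 17 that rose, 5 of the 7 that fell and 24 of the 27 never called. The 250 bases before the start given there were searched on both strands. In some members, among them ZKSCAN8 and ZBTB20, that start lies inside the full span of the gene, so the window is not before the gene's outer end. The core of ETS-family sites, CCGGAAG, stood in 29.8% of the members and in 8.82% of 27305 genes. These are all genes with a promoter there, on the array or not, and no share was taken over the genes tested. It was found in 6 of 15 members that rose, in 0 of 5 that fell and in 8 of 24 never called, so it was about as frequent in members without a call (33.3%) as in those that rose (40%). The windows of the last 120 bases before the start are shown for 3 of the members that rose and hold this motif there. ZBTB3, which fell and holds the CCAAT box, is shown as well. Capitals mark the motifs. CTTCCGG is CCGGAAG read from the other strand, and the pair of matches in ZKSCAN8 overlap each other.
ZSCAN12 (chr6:28399748-28399867, minus strand): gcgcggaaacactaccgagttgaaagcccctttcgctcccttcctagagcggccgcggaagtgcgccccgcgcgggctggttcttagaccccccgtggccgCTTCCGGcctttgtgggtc
ZSCAN22 (chr19:58326874-58326993, plus strand): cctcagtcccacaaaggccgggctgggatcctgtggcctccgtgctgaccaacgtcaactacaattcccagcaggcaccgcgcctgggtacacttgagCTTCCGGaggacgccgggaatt
ZKSCAN8 (chr6:28141763-28141882, plus strand): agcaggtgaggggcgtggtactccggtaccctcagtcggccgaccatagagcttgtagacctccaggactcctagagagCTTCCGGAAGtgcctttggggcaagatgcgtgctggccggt
ZBTB3 (chr11:62754161-62754280, minus strand): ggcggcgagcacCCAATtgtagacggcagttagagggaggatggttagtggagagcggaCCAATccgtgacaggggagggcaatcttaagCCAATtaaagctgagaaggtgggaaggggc

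All 4 windows are written 5′ to 3′ on the gene's own strand. ZSCAN29, ZBTB24 and ZBTB4 are the other 3 members that rose with this ETS motif in their 250 bases. In ZBTB24 the motif lies nearer to the start than in the 3 shown. For the motifs that follow, all genes are again the 27305 with a promoter, not the genes tested. Of the other motifs searched, the GC box GGGCGG stood in 66.7% of members and 42.3% of all genes, CCAAT in 38.6% and 33%, and the cAMP response element TGACGTCA in 1.75% and 1.77%. CCAAT stood in 2 of 5 members that fell, 10 of 24 never called and 3 of 15 that rose, so it was about as frequent in members without a call as in those that fell. TATAAA was found in 1.75% of members and 11.1% of all genes, and TCCTGCNA, the site bound by ZBTB33, in 5.26% and 3.68%. The median GC content of the 250 bases was 64% in members and 58% in all genes. A match is a stretch of letters and says nothing of binding in these cells.

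Among the ZBTB genes, 5 of 32 rose at 24 h (15.6%, against 10.3% of all genes tested) and 2 fell (6.25%, against 12.8%). At 48 h, 7 rose (21.9%, against 17.8%) and 5 fell (15.6%, against 20.1%). With the block, 9 rose (28.1%) and 2 fell (6.25%) at 24 h, beside 18.5% and 22.8% of all genes. At 48 h the blocked fit called 8 up (25%) and 7 down (21.9%), beside 26.7% and 28.1%. The median changes were 0.19 and 0.09. ZBTB38 (NCBI gene 253461), a repressor that binds methylated DNA, rose at both times. Its control arrays read 12.02, 12.26 and 12.26 at 24 h and 11.35, 11.57 and 11.79 at 48 h, here and below in the order of replicates 1, 2 and 3. The Aa arrays read 12.65, 12.86 and 12.5 at 24 h and 12.49, 12.61 and 12.59 at 48 h. All Aa arrays lay above all controls of their time. ZBTB38 rose by 0.49 ± 0.13 (SE, adjusted p = 0.0225) at 24 h and by 0.99 ± 0.13 (adjusted p = 0.000392) at 48 h, a 1.99-fold change. The call at 48 h was kept in every alternative. At 24 h it was lost without Aa replicate 1 (adjusted p = 0.0568), Aa replicate 2 (0.0669) or control replicate 1 (0.0853), and under the mean of its probe sets (0.37, adjusted p = 0.131). All 4 probe sets of ZBTB38 with a mean of at least 4 were higher with Aa at both times, by 0.25 to 0.49 at 24 h and 0.44 to 0.99 at 48 h.

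ZBTB24 (NCBI gene 9841), the gene mutated in a form of the immunodeficiency, centromeric instability and facial anomalies syndrome, was called upward on its brightest probe set alone. That probe set read 7.4, 7.75 and 7.61 in controls and 8.67, 8.09 and 8.51 with Aa at 24 h. At 48 h it read 7.49, 8.01 and 7.78 in controls and 8.16, 8.29 and 8.3 with Aa. The groups did not overlap at either time, and the changes were 0.84 ± 0.17 (adjusted p = 0.00579) and 0.50 ± 0.17 (adjusted p = 0.041). The other 2 probe sets changed by -0.88 and -0.64 at 24 h and by -0.71 and -0.73 at 48 h, and the first of them was called downward at 24 h (adjusted p = 0.0322 over probe sets). Averaged over its probe sets, ZBTB24 was lower with Aa, by -0.226 (adjusted p = 0.469) and -0.317 (adjusted p = 0.242), so the direction depends on the probe set. At 48 h the call was also lost in 7 of 12 fits that each left out 1 array, with adjusted p up to 0.146.

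ZBTB21, which can pair with ZBTB14, rose by 0.73 ± 0.13 (adjusted p = 0.00336) at 24 h and 0.75 ± 0.13 (adjusted p = 0.00159) at 48 h. Its Aa arrays at 48 h lay within 9.41 to 9.45, above controls of 8.59 to 8.86, and both calls were kept whichever array was left out. Its second probe set changed by 0.71 and 0.32, and the call at 48 h was lost when probe sets marked as shared were left out (adjusted p = 0.163). ZBTB40, whose locus is linked to bone density, rose by 0.70 ± 0.19 (adjusted p = 0.022) and 0.57 ± 0.19 (adjusted p = 0.0354). At 48 h its lowest Aa array (7.03) lay below its highest control (7.1). Its calls were lost in 3 of 12 single-array omissions at 24 h and 4 of 12 at 48 h.

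ZBTB17 (MIZ1), a partner of MYC that activates cell cycle inhibitors, had Aa arrays of 6.76 to 6.93 at 48 h above controls of 5.72 to 6.51. It rose by 0.76 ± 0.20 (adjusted p = 0.0133), a call kept whichever array was left out, while at 24 h the change was 0.20 (adjusted p = 0.518). The second ZBTB17 probe set changed by -0.27 at 24 h and by only 0.17 at 48 h, without a call. ZBTB7A, a repressor of fetal globin genes, rose by 0.73 ± 0.22 at 48 h (adjusted p = 0.0237; lost in 4 of 12 fits with 1 array left out). Its change at 24 h was 0.55 (adjusted p = 0.0954, and 0.0157 with the block). The second ZBTB7A probe set changed more, by 1.34 at 24 h and 1.18 at 48 h, and was called at both times when probe sets were tested separately. ZBTB49, which can activate the gene of the cell cycle inhibitor p21, rose by 0.73 ± 0.25 at 48 h (adjusted p = 0.0425), and 8 of 12 single-array omissions ended the call. ZBTB4, a second protein that binds methylated DNA, rose at 24 h by 0.38 ± 0.12 (adjusted p = 0.0391; lost in 5 of 12 single-array omissions and under the mean of its probe sets, 0.19), and at 48 h its change was -0.11 (adjusted p = 0.497).

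ZBTB25 (NCBI gene 7597), a repressor of genes induced in activated T cells, had the largest called change of any member. Controls read 4.28, 5.79 and 5.58 at 24 h and 4.63, 5.36 and 5.06 at 48 h. The Aa arrays read 3.74, 4.19 and 4.27 at 24 h and 3.18, 3.55 and 2.83 at 48 h. Every Aa array lay below every control of its time, and replicate 1 was the lowest control at both times. ZBTB25 fell by 1.15 ± 0.36 (adjusted p = 0.0414) at 24 h and by 1.83 ± 0.36 (adjusted p = 0.00291) at 48 h, a 3.56-fold change. Its mean with Aa at 48 h, 3.19, was itself under the filter value, the only such case among called members, so a low signal limits the size of this change. The call at 24 h was lost in 7 of 12 single-array omissions (adjusted p up to 0.143), and that at 48 h in none.

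ZBTB3 (NCBI gene 79842), a less studied member, fell at both times. Its controls read 4.91, 5.33 and 5.22 at 24 h and 5.28, 5.74 and 5.2 at 48 h. With Aa it read 4.56, 4.57 and 4.29 at 24 h and 4.27, 4.44 and 4.45 at 48 h. The groups were separate at both times. ZBTB3 fell by 0.68 ± 0.16 (adjusted p = 0.0112) and by 1.02 ± 0.16 (adjusted p = 0.00083), 2.03-fold at 48 h, and the 48 h call was kept in every alternative that tested it.

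ZBTB20 (NCBI gene 26137), a repressor of alpha-fetoprotein in liver, was called only at 48 h. Controls read 11.01, 11.19 and 10.54 at 24 h and 11.54, 11.49 and 10.87 at 48 h. With Aa it read 11.11, 11.23 and 10.47 at 24 h and 10.6, 10.6 and 10.17 at 48 h. Replicate 3 was the lowest of each group, the groups overlapped at 24 h, and at 48 h all Aa arrays lay below all controls. The change was 0.02 ± 0.25 at 24 h (adjusted p = 0.962) and -0.84 ± 0.25 at 48 h (adjusted p = 0.0236). All 10 of its probe sets with a mean of at least 4 were lower with Aa at 48 h, by -1.24 to -0.39, with 3 of them called, against 4 of 10 lower at 24 h. The call at 48 h was lost without Aa replicate 3 (adjusted p = 0.0893), control replicate 1 (0.0812) or control replicate 2 (0.0791), and under the mean of its probe sets (-0.77, adjusted p = 0.139), while with the block its adjusted p was 7.52e-05. The difference between times was -0.87 (adjusted p = 0.3, and 0.00704 with the block). ZBTB20 is also the longest member, spanning 832.8 kb in GRCh38.p14.

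The other 2 ZBTB genes called downward changed less. ZBTB1, which acts in lymphoid development and at stalled replication forks, fell at 48 h by 0.26 ± 0.09 (adjusted p = 0.0426), and 10 of 12 single-array omissions ended the call (adjusted p up to 0.145). ZBTB22, a gene of the major histocompatibility region, fell at 48 h by 0.51 ± 0.18 (adjusted p = 0.0415), and 7 of 12 omissions ended it (adjusted p up to 0.149).

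The ZSCAN genes moved both ways: 6 of 13 rose (46.2%) and 2 fell (15.4%) at each time. Of all genes tested, 10.3% rose and 12.8% fell at 24 h, and 17.8% rose and 20.1% fell at 48 h. With the block, 7 ZSCAN genes rose (53.8%) and 3 fell (23.1%) at 24 h, beside 18.5% and 22.8% of all genes. At 48 h the blocked fit called 6 up (46.2%) and 3 down (23.1%), beside 26.7% and 28.1%. The median changes of the ZSCAN genes were 0.47 at 24 h and 0.19 at 48 h. ZSCAN12 (NCBI gene 9753) had the largest rise of any member. Controls read 6.98, 7.09 and 7.36 at 24 h and 7.62, 7.65 and 7.24 at 48 h. Aa arrays read 9.21, 7.63 and 9.04 at 24 h and 9.22, 8.79 and 9.41 at 48 h. At 24 h replicate 2 with Aa stayed close to the controls, and still no Aa array overlapped a control at either time. ZSCAN12 rose by 1.48 ± 0.35 (adjusted p = 0.0121) at 24 h and 1.64 ± 0.35 (adjusted p = 0.00451) at 48 h, 2.79-fold and 3.12-fold. Without Aa replicate 3 the 24 h change was 1.27 (adjusted p = 0.0502), the only single array whose omission ended the call.

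ZSCAN22 (NCBI gene 342945) rose at both times. Its controls read 4.46, 5.03 and 4.57 at 24 h and 4.7, 4.63 and 4.18 at 48 h, and its Aa arrays 6.11, 5.62 and 5.98 at 24 h and 5.55, 4.99 and 5.77 at 48 h. As in ZSCAN12, replicate 2 was the lowest Aa array at both times, and the groups did not overlap. The rise was 1.22 ± 0.23 (adjusted p = 0.00424) at 24 h and 0.94 ± 0.23 (adjusted p = 0.00973) at 48 h, and both calls were kept whichever array was left out.

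ZSCAN18 (NCBI gene 65982), a gene often silenced by methylation in tumours, was called at 48 h. Controls read 8.94, 8.45 and 8.89 at 24 h and 9.1, 8.5 and 8.79 at 48 h, and Aa arrays 9.44, 8.88 and 9.39 at 24 h and 9.94, 9.27 and 9.77 at 48 h. Replicate 2 was the lowest of all 4 groups, and the groups overlapped at 24 h although each Aa array exceeded the control of its number. The change was 0.47 ± 0.23 at 24 h (adjusted p = 0.161, and 0.00125 with the block) and 0.86 ± 0.23 at 48 h (adjusted p = 0.013). Its second probe set changed by -0.48 and -0.19, and with probe sets marked as shared left out ZSCAN18 read -0.194 at 48 h (adjusted p = 0.574), and under the mean of both 0.34 (adjusted p = 0.201). Omitting Aa replicate 1 (adjusted p = 0.0542) or control replicate 2 (0.0526) at 48 h ended the call.

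ZSCAN32 (NCBI gene 54925) rose by 0.47 ± 0.15 at 24 h (adjusted p = 0.0415) and 0.81 ± 0.15 at 48 h (adjusted p = 0.00188). Its controls read 6.19, 6.36 and 6.22 at 24 h and 6.03, 6.32 and 6.25 at 48 h, and its Aa arrays 6.85, 6.51 and 6.82 at 24 h and 6.96, 6.77 and 7.3 at 48 h. Replicate 2 was again the lowest Aa array, and the groups did not overlap. The 24 h call was lost in 7 of 12 single-array omissions (adjusted p up to 0.136), and the 48 h call in none. ZSCAN29 rose by 0.68 ± 0.17 (adjusted p = 0.016; lost in 3 of 12) and 0.71 ± 0.17 (adjusted p = 0.00812; lost in 0 of 12). ZSCAN25 rose by 0.72 ± 0.21 (adjusted p = 0.0316; lost in 4 of 12) and 0.77 ± 0.21 (adjusted p = 0.0157; lost without Aa replicate 3 at 48 h, adjusted p = 0.0637). The second ZSCAN25 probe set changed by 1.21 and 0.68.

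ZSCAN16 and ZSCAN26 went the other way. ZSCAN16 (NCBI gene 80345) read 6.4, 6.49 and 6.88 in controls and 5.56, 5.54 and 5.12 with Aa at 24 h. At 48 h it read 6.53, 7.04 and 6.59 in controls and 5.27, 6.08 and 5.47 with Aa. All Aa arrays were below all controls, and ZSCAN16 fell by 1.19 ± 0.23 (adjusted p = 0.00438) and by 1.12 ± 0.23 (adjusted p = 0.0035), with both calls kept whichever array was left out.

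ZSCAN26 (NCBI gene 7741), described early as a binder of the serum response element, was the second largest fall. Controls read 6.05, 5.97 and 5.89 at 24 h and 6.46, 6.48 and 6.02 at 48 h, and Aa arrays 5.4, 4.78 and 4.77 at 24 h and 4.95, 4.07 and 5.48 at 48 h. The groups did not overlap, although the Aa arrays at 48 h spread more widely than any other group of this gene. ZSCAN26 fell by 0.99 ± 0.30 at 24 h (adjusted p = 0.0386) and by 1.48 ± 0.30 at 48 h (adjusted p = 0.00367), 2.8-fold at 48 h. The 24 h call was lost in 8 of 12 single-array omissions (adjusted p up to 0.121).

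**Figure D2:**
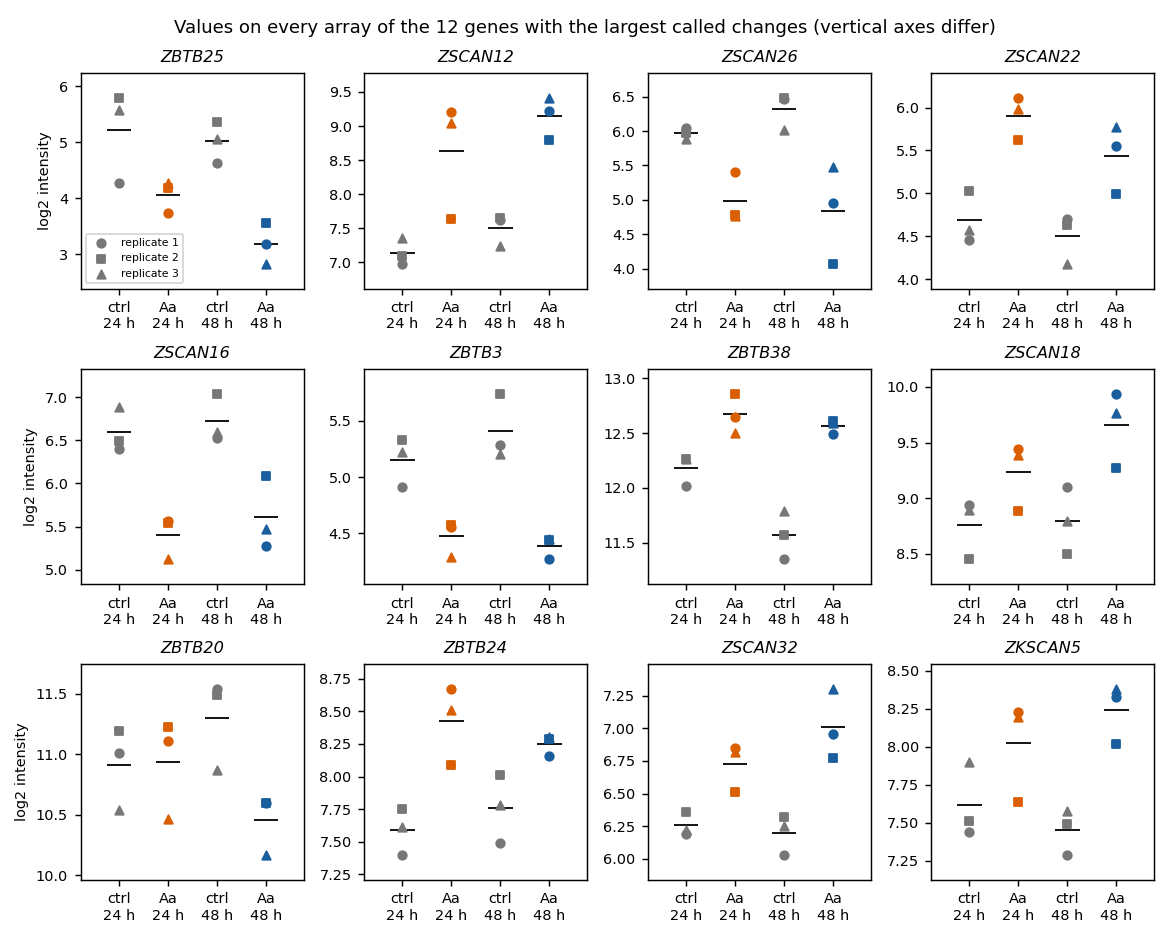
Log2 intensity (vertical axes, which differ between panels) on every array of the 12 members with the largest called changes, in the 4 groups of 3 arrays, with symbols for the replicate number and a bar at the group mean. ZBTB38, ZSCAN12 and ZSCAN22 show Aa arrays above their controls at both times, ZBTB3, ZBTB25, ZSCAN16 and ZSCAN26 below, and ZBTB20 is lower with Aa at 48 h only.

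ZSCAN31 (NCBI gene 64288) was the 1 member whose Aa effect differed between times, where 0.825% of all genes tested were called. Controls read 9.59, 9.93 and 9.51 at 24 h and 9.95, 10.18 and 9.95 at 48 h, and Aa arrays 10.15, 10.35 and 10.39 at 24 h and 9.68, 9.84 and 9.6 at 48 h. All Aa arrays lay above the controls at 24 h and below them at 48 h. ZSCAN31 rose by 0.62 ± 0.13 at 24 h (adjusted p = 0.00685), and its change at 48 h was -0.32 ± 0.13 (adjusted p = 0.0768, and 0.0142 with the block). The difference between the effects was -0.94 ± 0.18 (adjusted p = 0.049, and 0.00704 with the block), and it lost its call in 10 of 12 single-array omissions (adjusted p up to 0.149). The blocked fit called 4 members, beside 11% of all genes: ZSCAN31, ZBTB20, ZBTB4 (-0.49, adjusted p = 0.0302) and ZSCAN18 (0.39, adjusted p = 0.0442).

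Of the 6 ZKSCAN genes tested, 0 were called at 24 h (3 at an unadjusted p under 0.05), where 10.3% of all genes rose and 12.8% fell. At 48 h, 2 rose (33.3%, against 17.8% of all genes). The median changes were 0.21 and 0.39. ZKSCAN5 (NCBI gene 23660) was the larger. Its controls read 7.44, 7.51 and 7.9 at 24 h and 7.29, 7.49 and 7.58 at 48 h, and its Aa arrays 8.23, 7.64 and 8.2 at 24 h and 8.33, 8.02 and 8.38 at 48 h. The groups overlapped at 24 h and were separate at 48 h. The change was 0.41 ± 0.18 at 24 h (adjusted p = 0.139, and 0.0446 with the block) and 0.79 ± 0.18 at 48 h (adjusted p = 0.00707), and the call at 48 h survived each single-array omission. The second ZKSCAN5 probe set changed by 0.22 at 24 h and 0.37 at 48 h, without a call. ZKSCAN8 rose at 48 h by 0.50 ± 0.17 (adjusted p = 0.0421), a call lost in 6 of 12 omissions (adjusted p up to 0.141). Its change at 24 h was 0.46 (adjusted p = 0.0793, and 0.0167 with the block). With the block, ZKSCAN1, ZKSCAN5 and ZKSCAN8 were called upward at both times (3 of 6). ZKSCAN3, a repressor of autophagy genes, changed by -0.11 at 24 h and 0.41 at 48 h without a call.

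The 27 members without a call in either Aa comparison had changes between -0.57 and 0.58. They were ZBTB2, ZBTB5, ZBTB7B, ZBTB8A, ZBTB9, ZBTB10, ZBTB11, ZBTB14, ZBTB18, ZBTB26, ZBTB33, ZBTB34, ZBTB39, ZBTB41, ZBTB43, ZBTB44, ZBTB45, ZBTB47, ZBTB48, ZKSCAN1, ZKSCAN2, ZKSCAN3, ZKSCAN4, ZSCAN2, ZSCAN5A, ZSCAN9 and ZSCAN30. Both extremes belonged to ZBTB48 (TZAP), a telomere-binding protein, which varied widely within its groups. Its controls read 5.53, 5.52 and 5.34 at 24 h and 5.92, 4.41 and 5.19 at 48 h. Its Aa arrays read 6.16, 4.31 and 4.2 at 24 h and 6.1, 5.56 and 5.59 at 48 h, overlapping the controls at both times. ZBTB33 (Kaiso) changed by 0.12 and 0.08.

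For 33 members a single probe set reached a mean of 4, and for 18 several did. All probe sets of a gene had the same sign, read from rounded changes, in 8 of these 18 at 24 h and 11 at 48 h. At 24 h the signs differed in ZBTB10, ZBTB17, ZBTB18, ZBTB20, ZBTB24, ZBTB43, ZBTB44, ZKSCAN1 and ZSCAN18. ZBTB4 was not among those of the same sign either, since its probe sets changed by 0.38 and 0. At 48 h the signs differed in ZBTB10, ZBTB24, ZBTB43, ZBTB44, ZKSCAN1, ZSCAN18 and ZSCAN30. Probe sets of one gene can read different transcripts, and which transcripts these probe sets read was not examined. In ZBTB43 the brightest probe set changed by 0.19 and 0.12 without a call, while 3 others changed by 0.41, 0.70 and 1.13 at 24 h and by 0.87, 1.03 and 1.54 at 48 h. Tested as separate probe sets, 1 of these 3 was called at 24 h and 3 at 48 h. ZBTB10 was called down at 24 h on a dimmer probe set (-0.47, adjusted p = 0.0471). Its brightest changed by 0.30 and another by -0.48, both without a call. ZBTB14 was called down at 48 h on its dimmer probe set alone (-1.10, adjusted p = 0.0046), with the brighter one at -0.44. ZBTB4 was called down at 48 h on its dimmer probe set (-0.47, adjusted p = 0.0116).

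**Figure D3:**
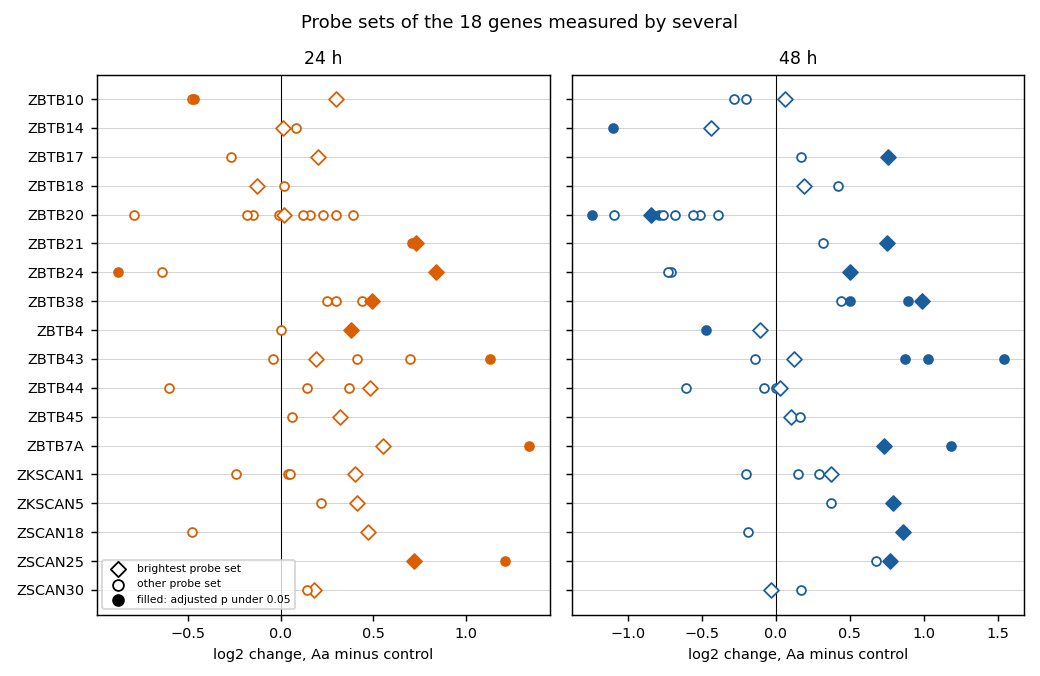
Log2 change with Aa (horizontal axes) at 24 h (left) and 48 h (right) of every probe set with a mean of at least 4, for the 18 members that have several. Diamonds mark the brightest probe set, circles the others, and filled symbols an adjusted p under 0.05 over all probe sets tested. ZBTB38 and ZBTB7A lie on the right at both times, all 10 probe sets of ZBTB20 lie on the left at 48 h, and those of ZBTB24 fall on both sides of 0.

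A run of ZSCAN and ZKSCAN genes lies on chromosome 6, near the major histocompatibility region. The chromosome carries 14 of the 66 members. In the order of the GRCh38.p14 annotation the run is ZSCAN16, ZKSCAN8, ZSCAN9, ZKSCAN4, ZSCAN26, ZSCAN31, ZKSCAN3, ZSCAN12 and ZSCAN23. Only ZSCAN26 is set off, with 1 other protein-coding gene on each side. ZSCAN16 fell at both times and the adjacent ZKSCAN8 rose at 48 h, ZSCAN9 and ZKSCAN4 had changes between -0.07 and 0.01, and ZSCAN26 fell at both times. ZSCAN31 rose at 24 h, ZKSCAN3 beside it was not called, and ZSCAN12 rose at both times. The largest rise and the largest fall among the ZSCAN genes, those of ZSCAN12 and ZSCAN26, thus came from the same run.

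**Figure D4:**
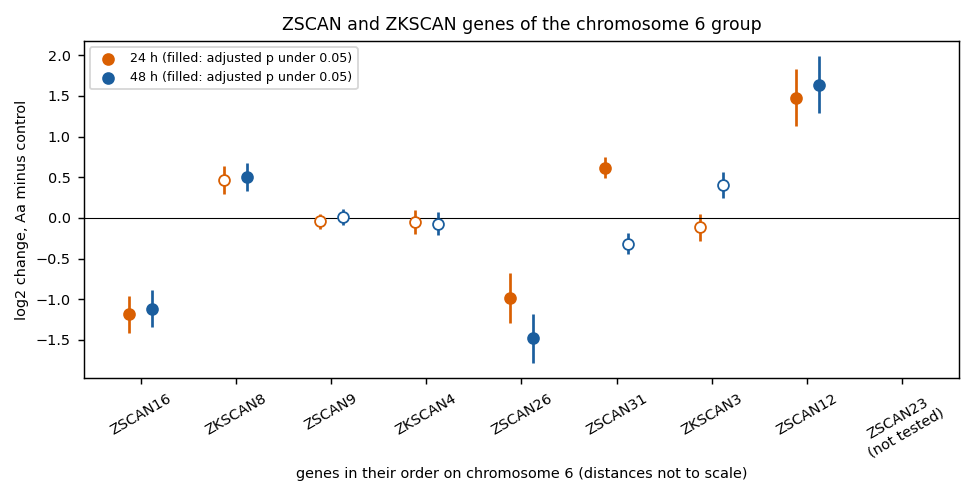
Log2 change with Aa (vertical axis) of the ZSCAN and ZKSCAN genes in their order on chromosome 6 (horizontal axis, distances not to scale), at 24 h (orange) and 48 h (blue), with bars for the SE and filled points for an adjusted p under 0.05. ZSCAN16 (-1.19 and -1.12) and ZSCAN26 (-0.99 and -1.48) lie low, ZSCAN12 (1.48 and 1.64) lies high, and ZSCAN9 and ZKSCAN4 lie along the zero line.

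The calls were also counted by gene span in GRCh38.p14. Of 10 members tested with a span under 10 kb, 0 rose at either time by limma (0 at 24 h and 1 at 48 h at an unadjusted p under 0.05, and 0 and 1 with the block), 2 fell at 24 h and 3 at 48 h: ZBTB3, ZSCAN16 and, at 48 h, ZBTB22. Among the 2175 genes tested of that span, 6.94% rose and 18.1% fell at 24 h, and 17% rose and 20.7% fell at 48 h. Of 24 members of 10 to 30 kb, 7 rose and 1 fell at 24 h and 8 rose and 2 fell at 48 h, beside 11.1% and 11% of 3170 genes at 24 h and 23.6% and 12.5% at 48 h. Of 12 members of 30 to 100 kb, 1 rose and 1 fell at 24 h and 4 rose and 1 fell at 48 h, beside 12.9% and 10.2% of 3516 genes at 24 h and 19.3% and 15.7% at 48 h. Over 100 kb there were 5: ZBTB38, ZBTB40 and ZSCAN25 rose at both times, ZBTB20 fell at 48 h, and ZSCAN5A was not called. Of 1924 genes over 100 kb, 7.8% rose and 14.9% fell at 24 h, and 6.39% rose and 39.7% fell at 48 h. These are counts in small classes and were not tested.

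In control cells, 0 of the 51 members differed between 48 h and 24 h by limma (7 at an unadjusted p under 0.05), beside 0.5% of all genes tested. With the block, 8 did, 6 higher and 2 lower at 48 h, beside 17.8% of all genes. ZBTB10 (0.57), ZBTB20 (0.39), ZBTB26 (0.68), ZBTB41 (0.46), ZBTB44 (0.63) and ZSCAN31 (0.35) were higher at 48 h, and ZBTB38 (-0.61) and ZSCAN5A (-0.72) lower. The change with Aa at 48 h had the opposite sign in ZBTB20 (-0.84), ZBTB26 (-0.33), ZBTB38 (0.99), ZBTB41 (-0.10) and ZSCAN31 (-0.32). In ZBTB10 (0.06), ZBTB44 (0.03) and ZSCAN5A (-0.03) it had the same sign. Both comparisons use the controls of 48 h.

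Related genes outside the 3 symbol families were described from lists, which were not tested against the other genes. Of all genes tested, 10.3% rose and 12.8% fell at 24 h, and 17.8% rose and 20.1% fell at 48 h. With the block, 18.5% rose and 22.8% fell at 24 h, and 26.7% rose and 28.1% fell at 48 h. Of 5 other BTB zinc finger genes tested (of 8 listed), 1 (20%) was called at each time, upward (4 up at 24 h, and 3 up and 1 down at 48 h, with the block). This was HIC2, a relative of the tumour suppressor HIC1, at 0.91 (adjusted p = 0.00104) and 1.11 (adjusted p = 0.000185). BCL6, the repressor of germinal centre B cells, changed by 0.53 (adjusted p = 0.0526) and 0.42 (adjusted p = 0.0897). Of 18 other SCAN-domain genes tested (of 21 listed), 3 rose (16.7%) and 2 fell (11.1%) at 24 h. At 48 h, 4 rose (22.2%) and 1 fell (5.56%). With the block these counts were 8 and 2, and 7 and 1. ZNF202, a repressor of lipid metabolism genes, rose by 1.33 (adjusted p = 0.0268) and 1.53 (adjusted p = 0.00959). ZNF274, which brings SETDB1 to zinc finger gene clusters, rose by 0.46 (adjusted p = 0.00522) and 0.84 (adjusted p = 0.000112). ZNF165, a testis gene, fell by 2.89 at 24 h (adjusted p = 0.000172) and by 0.99 at 48 h (adjusted p = 0.0254).

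Of 17 tested cofactors of these proteins (of 20 listed), 4 rose (23.5%) and 1 fell (5.88%) at 24 h, beside 10.3% and 12.8% of all genes. At 48 h, 4 rose (23.5%) and 3 fell (17.6%), beside 17.8% and 20.1% of all genes. The shares at 48 h were thus nearer to those of all genes than the shares at 24 h. These counts are small and were not tested. With the block, 5 rose and 3 fell at each time. HDAC3, the histone deacetylase of the BTB corepressor complex, rose by 0.41 (adjusted p = 0.0119) and 0.52 (adjusted p = 0.00214). BCOR, a corepressor bound by BTB domains, rose by 0.43 (adjusted p = 0.0267) and 0.48 (adjusted p = 0.0106), and CBX5, a heterochromatin protein, by 0.52 and 0.35. TBL1XR1 rose at 24 h by 0.30, and SIN3B, a scaffold of histone deacetylases, at 48 h by 1.33 (adjusted p = 0.00464). SETDB1, the methyltransferase that KRAB proteins recruit through TRIM28, fell at 48 h by 0.82 (adjusted p = 0.000686), while TRIM28 changed by 0.23 and 0.41 without a call. RBX1, which works with CUL3 in ubiquitin ligases, fell by 0.40 and by 0.35, and TBL1X fell at 48 h by 0.76.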

How the data were processed

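The authors deposited 1 table of log2 intensities, normalised with GCRMA per the submitters' processing notes (version not stated). All its columns were matched to a sample. Gene names came from the array's annotation, with symbols checked against GRCh38.p14. Symbols with another ending, such as antisense genes, were left out (9).

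Group means were fitted to 12 arrays with limma 3.58.1 (lmFit and eBayes without trend, R 4.3.3, 8 residual and 2.76 prior degrees of freedom), and p-values were adjusted by the Benjamini-Hochberg method over 10791 genes. Tests were two-sided. The code was tested on simulated data.

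The labels call the 3 arrays of a group biological replicates without saying how cultures differed, so p-values measure only the spread between these arrays, whose number limits the precision. Deviations from the group means correlated positively between same-number arrays (r 0.35 to 0.62 in 18 pairs) and negatively between others (r -0.49 to -0.01 in 36 pairs). Deviations from a group mean cancel within the group, so the negative values are in part built in. Each array (12 of 12) resembled one of its own number most. The labels do not state this pairing, which is read from the data. Blocked values stand beside most results they change, but are not given for the promoter classes or for spans over 10 kb.

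The members and lists were chosen with earlier results of these data known. Named were all members called in a comparison, with every array of the 12 with the largest called change; members without a call are named with their range, and those under the filter are counted and named. ZSCAN31 and ZBTB48 are given by array because of their values. HIC2 and other genes of the lists were also named after their values were seen. Alternatives changed the filter, the probe set of a gene, the scaling, the variance model and the arrays in the fit.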

Additional observations from a re-analysis of the deposited data

Results flagged for a closer look

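The change of the Aa effect in ZSCAN31 from 24 h to 48 h was -0.94 on the log2 scale, the 1 difference between times that passed the threshold among the members (limma, adjusted p = 0.049). At 24 h all 3 Aa arrays lay above the controls (0.62) and at 48 h all 3 lay below them (-0.32). The call was lost in 10 of 12 fits with 1 array left out, with adjusted p from 0.0335 to 0.149 over those fits.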

How the results depend on the processing

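Among 37 calls of members, 2 were kept in every alternative (ZBTB3 and ZBTB38 at 48 h) and 3 changed direction: ZBTB24 under the mean of its probe sets (-0.226 at 24 h and -0.317 at 48 h) and ZSCAN18 at 48 h without probe sets marked as shared (-0.194); in both, the alternative reads other probe sets. Calls lost or turned numbered 13 without the filter, 8 in fits of the 6 arrays compared, 6 under the mean of probe sets, 2 without shared probe sets, 2 with trend and robust fitting, and 1 each with quantile normalization and median centring. The fit without shared probe sets could not test ZBTB4, ZBTB17, ZBTB40, ZKSCAN5 and ZSCAN31, whose probe sets with a mean of at least 4 are all marked as shared. It counted 8 members up at 24 h and 10 at 48 h. The replicate block lost 0. The 11 members up at 24 h became 7 without the filter and 19 with the replicate block, and ranged from 0 to 13 with arrays left out. The 4 down at 24 h became 2 without the filter and 1 at a mean of at least 6 (fewer genes tested), and ranged from 0 to 4. The 15 up at 48 h ranged from 4 to 15. The 7 down at 48 h became 3 at a mean of at least 6 and ranged from 2 to 7. The 1 member whose effect differed between times became 0 without the filter or with arrays centred on the median. It became 2 under the mean of probe sets and 4 with the replicate block, and ranged from 0 to 1. Without shared probe sets the count was 0, but ZSCAN31 has no other probe set and was absent from that fit. The 0 members changed in control cells became 1 with trend and robust fitting and 8 with the replicate block, and ranged from 0 to 3.

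Single arrays that moved a count by over 1.5 times were, for the rises at 24 h, Aa replicate 1 (6), Aa replicate 3 (6) and control replicate 1 (7). For the falls at 24 h they were Aa replicate 2, Aa replicate 3, control replicate 2, control replicate 3 and Aa replicate 1 of 48 h (2 each), and for the falls at 48 h control replicate 1 (4). Without control replicate 3 of 48 h, 3 members changed in control cells. Leaving out 1 replicate number in all groups, an alternative chosen after seeing the data, left 0, 12 and 0 members up at 24 h without numbers 1, 2 and 3, and 1, 2 and 0 down. At 48 h it left 4, 12 and 4 up and 2, 5 and 4 down. Apart from the replicate block, the shares of all genes called in these alternative fits were not counted. The changes of the counts therefore do not show anything particular to the members. Signals near the filter, as in ZBTB25, limit what small changes can be seen.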
